A study of Mus musculus with 9 samples.

Results

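The WNT pathway genes described here encode the ligands, the proteins that mature, release or block them, their receptors, and the complex that controls beta-catenin, measured in mouse embryonic stem cells grown in 3 media. Members were taken by gene symbol: a list of 40 genes, and every gene whose symbol is Wnt, a number and at most an a or b. This gave 59 of the 24819 genes in the deposited table, 19 of them ligands. The cells were of the E14 line, an established mouse embryonic stem cell line, kept on gelatin-coated plates, and RNA libraries were made with a stranded mRNA kit. In the group named ES the medium was high-glucose DMEM with fetal bovine serum and leukemia inhibitory factor (LIF). In 2iLIF it was N2B27, a defined base medium, with LIF and 2i, which as background is a MEK inhibitor and a GSK3 inhibitor. In EPSCM it was expanded potential stem cell medium, whose components the labels do not list; published recipes of that name include, as background, inhibitors of tankyrase and of GSK3. Each medium had 3 libraries of this 1 line, and nothing in the labels says that they were separate cultures, so a p-value here measures the spread between libraries alone, and that spread may be technical.

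WNT proteins are lipid-modified signals that Porcn makes active, Wls carries to the cell surface, and a Frizzled receptor binds together with LRP5 or LRP6. Without the signal a complex of APC, AXIN1 and the GSK3 kinases marks beta-catenin for breakdown, and tankyrases destabilise AXIN; with it, beta-catenin reaches the nucleus and relieves repression by TCF7L1. In embryonic stem cells the pathway is known for supporting self-renewal, and a GSK3 inhibitor acts on it below the receptors.

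Levels are in FPKM, by definition fragments scaled to transcript length and library total, so that genes can be set side by side. The scaling between libraries used for these values was not given in the sources used here. Means are ± SD over 3 libraries. Each difference is the first medium minus the second on log2(FPKM + 1), given ± SE; this scale understates changes of low genes. A gene was tested where at least 3 of the 9 libraries reached 1 FPKM. It was called where the limma adjusted p was under 0.05 and the difference at least 1 in size, and "higher", "lower", "rose" and "fell" are kept for calls. Library sums ran from 546636 to 600728 FPKM, and 11155 to 11764 genes reached 1 FPKM. The table holds no counts; steps among its lowest values put 1 fragment in 1 kb of transcript at roughly 0.0325 to 0.0547 FPKM. All 8 stem cell markers (Pou5f1, Nanog, Sox2, Zfp42, Esrrb, Sall4, Utf1 and Tdgf1) reached 1 FPKM, with sums of 3720 to 4147, 2616 to 2917 and 2043 to 2171 FPKM in ES, 2iLIF and EPSCM. Their orders differed: Nanog (means of 326, 432 and 295 FPKM) and Esrrb (248, 291 and 175) were highest in 2iLIF. The others had their highest mean in ES, among them Utf1 (536, 28.1 and 28.4) and Tdgf1 (572, 286 and 547). Within each medium 1 library stood apart from the other pair: ES replicate 1, 2iLIF replicate 1 and EPSCM replicate 2. Their titles carry the highest library numbers of the series, and the labels give no batch. Against that pair's mean, 23 of 34 tested members (67.6%) lay on the same side in all media, and 76.0% of all tested genes did.

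Of the 59 members 34 were tested, and 24 of these reached 1 FPKM in all 9 libraries. Wnt5b, Wnt6, Wnt9a and Rspo1 passed the filter through 1 medium only, so that a difference was built into their passing. In EPSCM against ES 4 members were higher and 4 lower, 23.5% of those tested, where 19.7% of all tested genes were called (11.7% higher, 7.97% lower). After quantile normalization 49.5% of all calls in that comparison were higher, in place of 59.4%. In EPSCM against 2iLIF 7 were higher and 4 lower, 32.4%, where 16.1% of all tested genes were called (10.1% higher, 5.91% lower). In 2iLIF against ES 6 were higher and 5 lower, 32.4%, where 14.7% of all were called (7.62% higher, 7.12% lower). The first share is near its background, and none of the shares was tested against its background. Every medium serves in 2 of these comparisons, so they are not independent. Without the fold limit 27, 25 and 26 members passed in the same order, where 73.1%, 68% and 67% of all tested genes did. Libraries did not overlap between the media for 26, 25 and 28 members, where this held for 74.1%, 71.1% and 70.6% of all. The members' median difference was 0.22, 0.02 and 0.03, and that of all tested genes 0.09, 0.03 and 0.03. By mean level 14 tested members were highest in EPSCM, 12 in 2iLIF and 8 in ES.

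**Figure D1:**
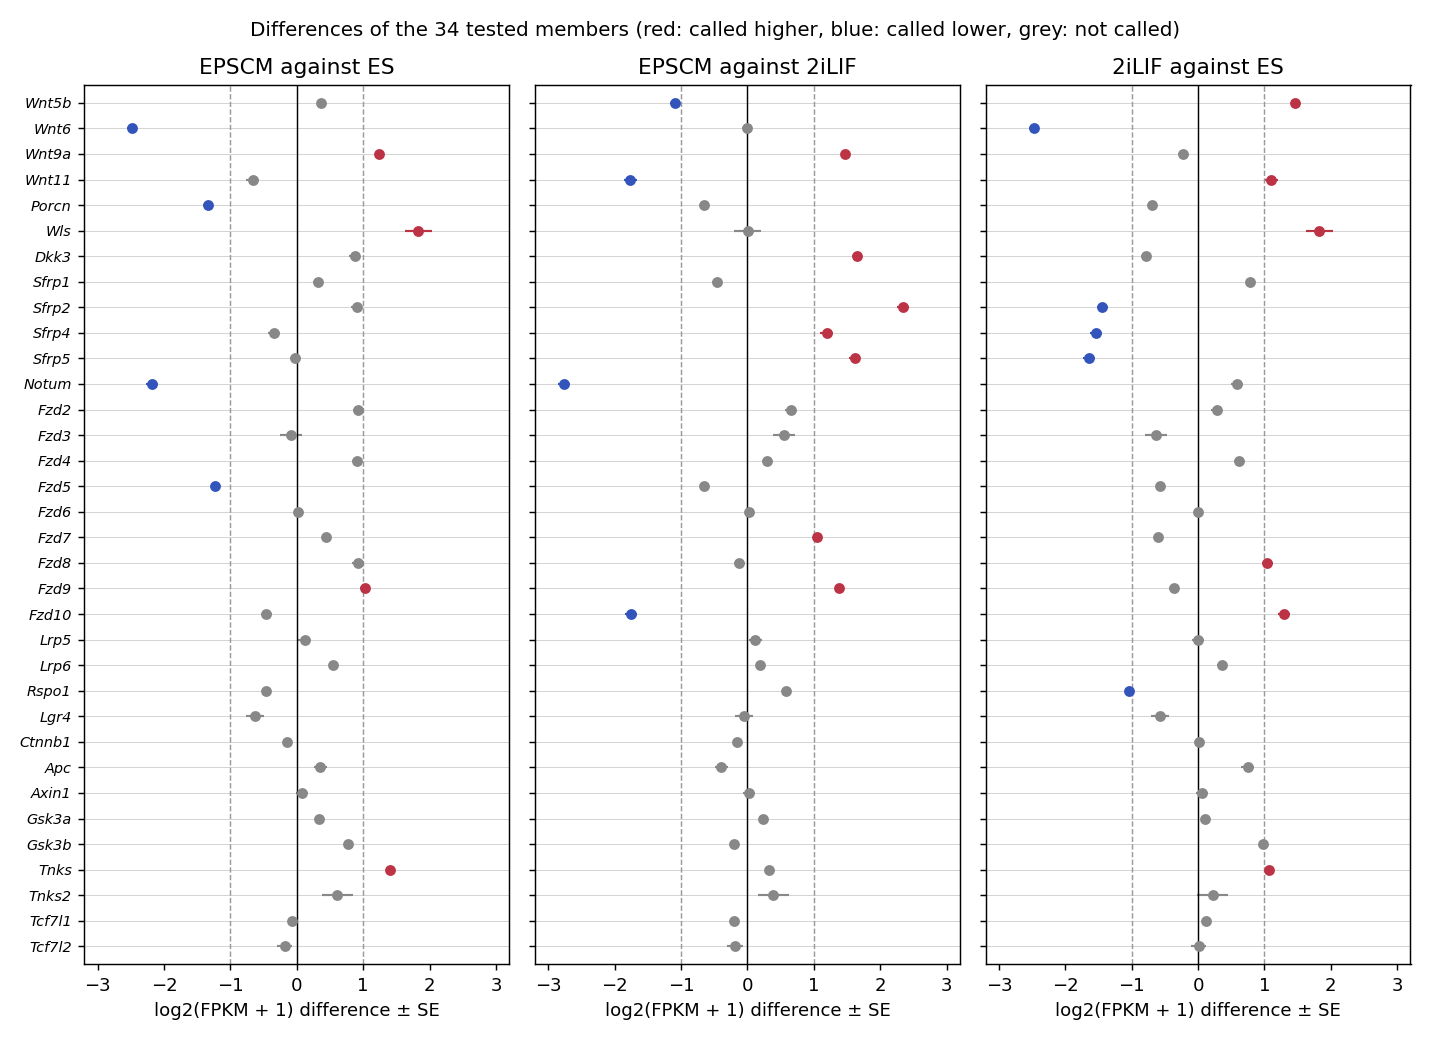
Difference on log2(FPKM + 1), first medium minus second, ± SE (x axis) of the 34 tested members (rows) in 3 comparisons; dashed lines mark the fold limit, and red, blue and grey points are members called higher, lower and not called. Wnt6 and Notum lie farthest to the left in EPSCM against ES, at -2.48 and -2.18, and Notum does in EPSCM against 2iLIF, at -2.76.

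Each medium had its own leading WNT ligand, Wnt6 in ES, Wnt11 in 2iLIF and Wnt9a in EPSCM, and all 3 were low beside the leading receptors. The 250 bases before the annotated start of these 3 genes are shown because they are the ligands by which the media differ most in make-up. The sequences are from RefSeq for build GRCm38.p6, in the direction of the gene, at chr1:74771642-74771891 on the plus strand for Wnt6, chr7:98834862-98835111 on the plus strand for Wnt11 and chr11:59306680-59306929 on the plus strand for Wnt9a. Capitals mark a match to a TCF/LEF motif.
Wnt6: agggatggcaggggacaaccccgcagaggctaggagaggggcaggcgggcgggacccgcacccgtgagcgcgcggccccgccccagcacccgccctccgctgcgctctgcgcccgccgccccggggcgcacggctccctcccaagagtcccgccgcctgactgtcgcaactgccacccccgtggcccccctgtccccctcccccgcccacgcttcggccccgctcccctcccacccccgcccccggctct
Wnt11: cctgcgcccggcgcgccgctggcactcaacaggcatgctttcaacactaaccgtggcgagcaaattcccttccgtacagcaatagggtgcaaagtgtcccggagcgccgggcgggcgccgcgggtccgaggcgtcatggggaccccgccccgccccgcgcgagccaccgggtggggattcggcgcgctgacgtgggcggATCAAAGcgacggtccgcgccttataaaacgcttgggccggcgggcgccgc
Wnt9a: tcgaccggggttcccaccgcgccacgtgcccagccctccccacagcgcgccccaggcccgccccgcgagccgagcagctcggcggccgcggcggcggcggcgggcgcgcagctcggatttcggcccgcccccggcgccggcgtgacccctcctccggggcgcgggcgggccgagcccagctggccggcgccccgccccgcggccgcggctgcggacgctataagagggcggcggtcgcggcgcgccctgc

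The search took in 4 forms of the motif on both strands: a first form CTTTGAA, a second form CTTTGAT, another form CTTTGTA and lastly the form CTTTGTT. It covered windows from 250 bases before to 50 bases after a start. Among 32851 windows of this length that RefSeq gave, 16.9% held at least 1. Windows were there for 37 of the 59 members, and 7 of these held a match: Fzd7, Wnt5b, Gsk3a, Wnt11, Wnt3, Dkk1 and Tcf7l2. Wnt11 has 2 windows, and the one with the match is shown; CTTTGAT lies there on the opposite strand, its far end 51 bases before the start. Wnt6 and Wnt9a hold none of these letters in the stretches shown. A match describes the sequence and is no evidence of binding.

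Wnt6, a ligand that can signal through beta-catenin, stood at 8.04, 7.16 and 6.79 FPKM in ES, 0.468, 0.581 and 0.449 in 2iLIF and 0.438, 0.601 and 0.428 in EPSCM (replicates 1, 2 and 3 in this order throughout). Every ES library lay above every other library, and 2iLIF and EPSCM overlapped. The difference was -2.48 ± 0.08 (adjusted p = 2.23e-08) for EPSCM against ES and -2.47 ± 0.08 (adjusted p = 1.75e-08) for 2iLIF against ES, and -0.01 ± 0.08 between EPSCM and 2iLIF. As Wnt6 passed the filter through ES alone, a difference was built into its tests against ES. Wnt6 alone held 58.8% ± 1.26 of the summed ligand FPKM in ES. Wnt7b and Wnt10a were not tested. Wnt7b was at 1.06 ± 0.0856, 0.0906 ± 0.0156 and 0.313 ± 0.0264 FPKM in ES, 2iLIF and EPSCM. Wnt10a was at 0.932 ± 0.214 FPKM in ES and 0.0291 ± 0.0128 in EPSCM, and is listed at 0 in all 2iLIF libraries. Both thus had their highest mean in ES, as Wnt6 did; in bulk RNA fewer cells of a type and less RNA per cell cannot be told apart.

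Wnt11, which acts mostly without beta-catenin in cell movement, stood at 1.23, 1.33 and 1.21 FPKM in ES, 4.47, 3.41 and 3.64 in 2iLIF and 0.312, 0.617 and 0.349 in EPSCM. The 3 media did not overlap. The difference was -1.76 ± 0.10 (adjusted p = 6.16e-07) for EPSCM against 2iLIF and 1.09 ± 0.10 (adjusted p = 1.49e-05) for 2iLIF against ES; the latter was 0.996, under the limit, without the 3 libraries that stood apart. Wnt5b, also known mainly for signaling without beta-catenin, was at 0.313, 0.195 and 0.267 FPKM in ES, 2.53, 2.59 and 2.29 in 2iLIF and 0.698, 0.645 and 0.527 in EPSCM. Its 2iLIF libraries were the highest, its ES libraries the lowest, and none overlapped. The difference was 1.46 ± 0.06 (adjusted p = 1.31e-07) for 2iLIF against ES and -1.10 ± 0.06 (adjusted p = 7.03e-07) for EPSCM against 2iLIF. Wnt5b passed the filter through 2iLIF alone, so a difference was built into both of its tests. Wnt11 and Wnt5b held 49.0% ± 2.94 and 31.7% ± 2.83 of the ligand FPKM of 2iLIF.

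Wnt9a, a ligand known from joint formation, stood at 0.442, 0.337 and 0.432 FPKM in ES, 0.194, 0.133 and 0.254 in 2iLIF and 2.21, 2.51 and 2.22 in EPSCM. All EPSCM libraries were above all others. The difference was 1.24 ± 0.06 (adjusted p = 2.72e-07) for EPSCM against ES and 1.47 ± 0.06 (adjusted p = 1.06e-07) for EPSCM against 2iLIF, and Wnt9a held 41.4% ± 2.78 of the ligand FPKM there. Since Wnt9a passed the filter through EPSCM alone, a difference was built into both tests. The other 13 ligands reached 1 FPKM in no library. Among these were Wnt3 and Wnt3a, ligands known for activating beta-catenin in the early embryo, whose highest library values were 0.139 and 0.377 FPKM. Over all 19 ligands the sum was 12.5 ± 0.821 FPKM in ES, 7.82 ± 0.742 in 2iLIF and 5.60 ± 0.536 in EPSCM.

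**Figure D2:**
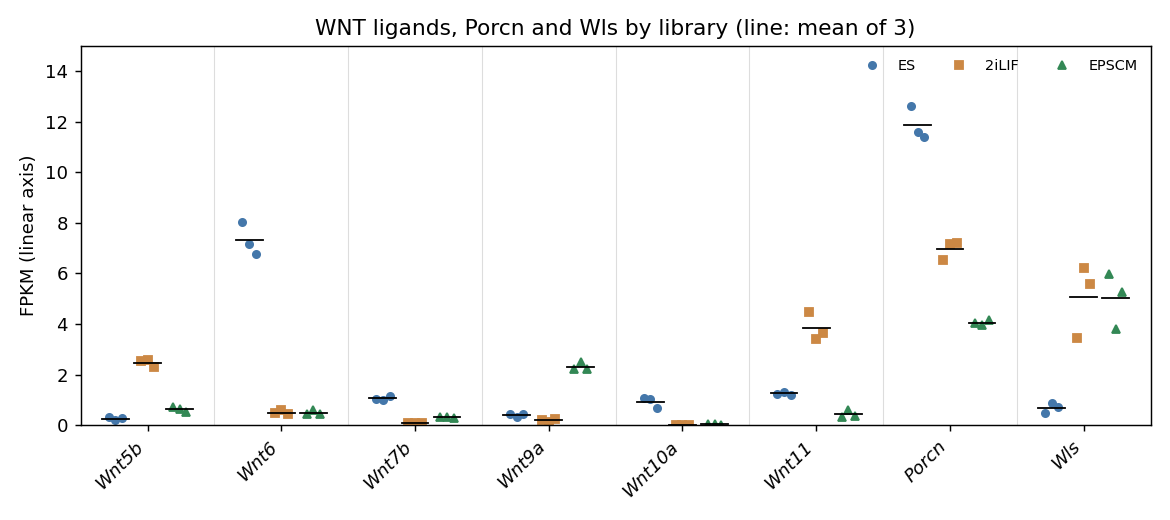
FPKM (linear y axis) of 6 WNT ligands, Porcn and Wls (x axis) in each of the 9 libraries, with a line at the mean of the 3 libraries of a medium. Wnt6 stands out in ES, Wnt11 and Wnt5b in 2iLIF and Wnt9a in EPSCM, and Wls is low in ES.

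Porcn and Wls, both needed to make and release any WNT, went in opposite directions between ES and EPSCM. Porcn, the enzyme that attaches the lipid, stood at 12.6, 11.6 and 11.4 FPKM in ES, 6.52, 7.16 and 7.20 in 2iLIF and 4.04, 3.97 and 4.16 in EPSCM. The media did not overlap, with ES at the top and EPSCM at the bottom. The difference was -1.35 ± 0.06 (adjusted p = 1.69e-07) for EPSCM against ES; those of -0.69 ± 0.06 for 2iLIF against ES and -0.65 ± 0.06 for EPSCM against 2iLIF were short of the fold limit. Wls, the carrier of finished WNT, was at 0.468, 0.874 and 0.713 FPKM in ES, 3.43, 6.23 and 5.57 in 2iLIF and 5.99, 3.80 and 5.29 in EPSCM. ES lay below all other libraries, and 2iLIF and EPSCM overlapped. The difference was 1.83 ± 0.20 (adjusted p = 3.51e-05) for EPSCM against ES, 1.83 ± 0.20 (adjusted p = 4.57e-05) for 2iLIF against ES and 0.00 ± 0.20 between EPSCM and 2iLIF. The library that stood apart had the lowest Wls value of the 3 in every medium, at 0.581 to 0.674 times the mean of the other pair. With that library difference as a covariate the EPSCM against ES value was 1.83 ± 0.08 (limma adjusted p = 1.23e-08), the same difference with a smaller SE. The covariate was chosen from these data and marks a library in every medium, so the difference could not change and the smaller p is no separate support.

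The Frizzleds, the receptors that bind WNT, differed between the media more in make-up than in total: Fzd5 led in ES, Fzd10 in 2iLIF and Fzd7 in EPSCM. The upstream stretches of these 3 genes are shown because each leads in 1 medium; source, direction and capitals are as for the ligands. They lie at chr1:64737751-64738000 on the minus strand for Fzd5, chr5:128600856-128601105 on the plus strand for Fzd10 and chr1:59481897-59482146 on the plus strand for Fzd7.
Fzd5: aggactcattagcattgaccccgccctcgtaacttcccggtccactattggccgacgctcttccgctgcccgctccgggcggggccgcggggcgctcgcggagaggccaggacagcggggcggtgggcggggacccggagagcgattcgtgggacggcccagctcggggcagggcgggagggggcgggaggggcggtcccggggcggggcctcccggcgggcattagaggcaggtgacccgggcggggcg
Fzd10: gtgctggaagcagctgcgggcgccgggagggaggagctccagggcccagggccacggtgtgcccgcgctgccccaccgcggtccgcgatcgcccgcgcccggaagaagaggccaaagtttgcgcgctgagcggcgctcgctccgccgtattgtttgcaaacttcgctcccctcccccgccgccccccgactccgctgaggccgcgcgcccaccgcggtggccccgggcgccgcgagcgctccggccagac
Fzd7: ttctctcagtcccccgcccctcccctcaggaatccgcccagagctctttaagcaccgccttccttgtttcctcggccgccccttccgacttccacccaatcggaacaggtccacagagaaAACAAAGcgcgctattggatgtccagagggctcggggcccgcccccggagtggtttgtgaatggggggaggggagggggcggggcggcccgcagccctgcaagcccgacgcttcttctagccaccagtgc

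Fzd7 holds CTTTGTT on the opposite strand, its far end 130 bases before the start that RefSeq gives. The last 30 bases of the Fzd7 window, which follow that start, were found in no GENCODE transcript of the gene, so its distance is less certain. The stretches of Fzd5 and Fzd10 hold none of the motifs. G and C made up 76.4%, 76.4% and 65.2% of the stretches of Fzd5, Fzd10 and Fzd7, and the median over all windows was 52.4%.

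Fzd5 stood at 52.1, 51.2 and 49.5 FPKM in ES, 35.5, 33.2 and 33.4 in 2iLIF and 19.7, 22.7 and 21.1 in EPSCM. ES lay above and EPSCM below all other libraries, and the difference for EPSCM against ES was -1.23 ± 0.06 (adjusted p = 2.52e-07). Fzd5 is on chromosome 1, whose 657 tested genes had a median difference of -0.29 in this comparison; with that median subtracted it was -0.94, under the limit. Fzd10 stood at 15.97, 14.6 and 14.1 FPKM in ES, 42.1, 36.7 and 35.4 in 2iLIF and 10.1, 11.5 and 10.01 in EPSCM. Its 2iLIF libraries were above all others and EPSCM below all others. The difference was 1.30 ± 0.09 (adjusted p = 1.60e-06) for 2iLIF against ES and -1.76 ± 0.09 (adjusted p = 2.14e-07) for EPSCM against 2iLIF. Fzd7, a Frizzled often linked to pluripotent cells, was at 22.8, 20.8 and 22.1 FPKM in ES, 13.8, 14.0 and 14.3 in 2iLIF and 29.2, 31.6 and 29.6 in EPSCM. The media did not overlap, with EPSCM at the top, and the difference was 1.05 ± 0.06 (adjusted p = 3.65e-07) for EPSCM against 2iLIF and 0.44 ± 0.06, not called, for EPSCM against ES. Fzd7 too is on chromosome 1, and with the chromosome's median subtracted the latter was 0.73.

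As a share of the summed Frizzled FPKM, Fzd5 took 52.2% ± 0.765 in ES, 34.9% ± 0.630 in 2iLIF and 25.6% ± 0.804 in EPSCM. Fzd10 took 15.2% ± 0.627, 39.0% ± 1.53 and 12.7% ± 0.441, and Fzd7 22.4% ± 0.797, 14.4% ± 1.01 and 36.4% ± 0.190. The sum was 97.6 ± 2.32, 97.6 ± 5.32 and 82.8 ± 3.88 FPKM in the same order.

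Of the lesser Frizzleds, Fzd9 stood at 2.71, 2.53 and 2.90 FPKM in ES, 2.12, 1.76 and 1.82 in 2iLIF and 6.72, 6.87 and 6.09 in EPSCM. EPSCM was above all others and 2iLIF below all others. The difference was 1.38 ± 0.07 (adjusted p = 3.56e-07) for EPSCM against 2iLIF and 1.02 ± 0.07 (adjusted p = 2.04e-06) for EPSCM against ES, the second below the limit in 7 of 19 other settings, at 0.83 after quantile normalization, 0.990 without ES replicate 2 and 0.996 without EPSCM replicate 2. Fzd8 was at 0.372, 0.571 and 0.543 FPKM in ES, 2.21, 2.18 and 1.85 in 2iLIF and 1.68, 2.09 and 1.72 in EPSCM. ES was below all other libraries, and the difference was 1.04 ± 0.08 (adjusted p = 5.73e-06) for 2iLIF against ES, a call lost at 0.98 without ES replicate 1, at 0.95 without the 3 libraries that stood apart and at 0.94 with the chromosome median subtracted. A pseudocount of 0.1 FPKM in place of 1 gave Fzd8 a call in EPSCM against ES too, at 1.71. Fzd2 and Fzd4 had no call, with 3.02 ± 0.155, 3.88 ± 0.501 and 6.65 ± 0.548 FPKM and 0.674 ± 0.136, 1.57 ± 0.138 and 2.14 ± 0.153 FPKM in ES, 2iLIF and EPSCM. With the lower pseudocount both were called in EPSCM against ES, at 1.11 and 1.55, and Fzd4 in 2iLIF against ES, at 1.12. Fzd3 and Fzd6 had no call either, with 1.38 ± 0.375, 0.515 ± 0.0759 and 1.24 ± 0.471 FPKM and 1.42 ± 0.0933, 1.42 ± 0.118 and 1.45 ± 0.106 FPKM. Fzd1 was not tested, at 0.242 ± 0.0413, 0.122 ± 0.0211 and 1.06 ± 0.209 FPKM.

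The co-receptors had no call. Lrp5 was at 18.6 ± 1.46, 18.6 ± 1.37 and 20.3 ± 2.52 FPKM in ES, 2iLIF and EPSCM, and the media overlapped. Lrp6 was at 9.36 ± 0.627, 12.2 ± 0.659 and 14.2 ± 0.871 FPKM, with a difference of 0.55 ± 0.07 (adjusted p = 1.09e-04) for EPSCM against ES.

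**Figure D3:**
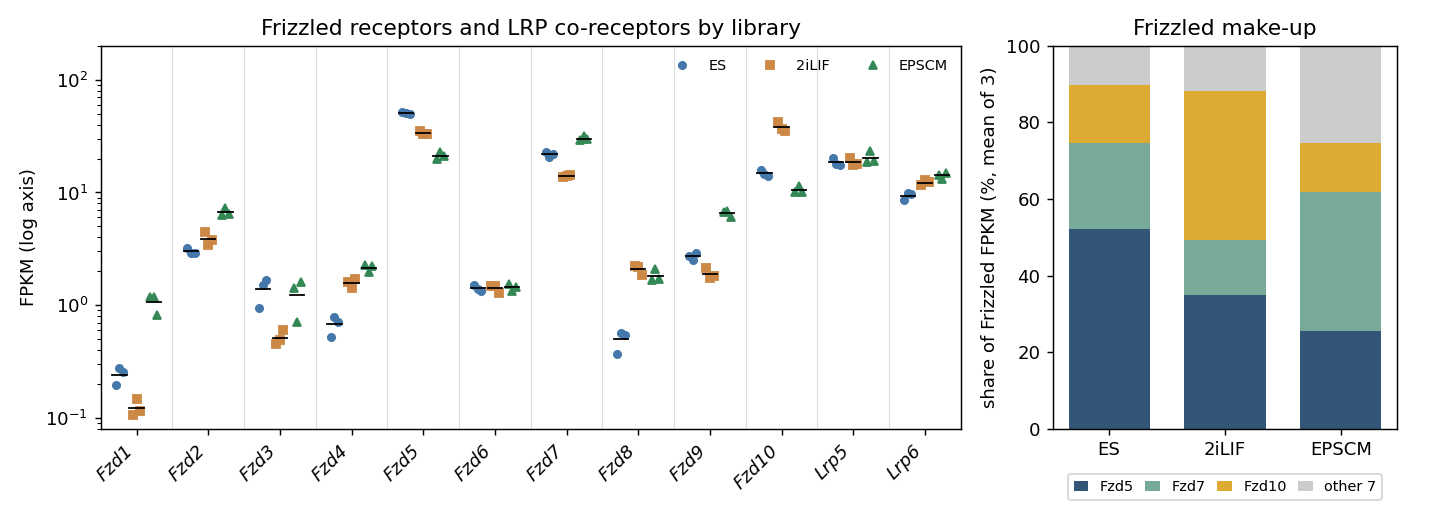
Left, FPKM (log y axis) of the 10 Frizzled genes, Lrp5 and Lrp6 in each library, with a line at the mean of 3. Right, mean share (percent) of Fzd5, Fzd7, Fzd10 and the other 7 in the summed Frizzled FPKM of a medium: Fzd5 takes the largest part in ES, Fzd10 in 2iLIF and Fzd7 in EPSCM.

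Of the 10 secreted antagonists 6 were tested, and in EPSCM against 2iLIF 4 of them were higher (Sfrp2, Sfrp4, Sfrp5 and Dkk3) and 1, Notum, was lower, where 10.1% and 5.91% of all tested genes were. In 2iLIF against ES 3 were lower, where 7.12% of all were, and none higher. In EPSCM against ES Notum alone was called, lower, where 19.7% of all were called. Notum encodes a secreted enzyme that strips the lipid from WNT, and is itself a WNT target in several tissues. It stood at 21.1, 18.4 and 19.2 FPKM in ES, 32.2, 27.9 and 29.4 in 2iLIF and 3.30, 4.06 and 3.31 in EPSCM. All EPSCM libraries were below all others, and 2iLIF was above ES. The difference was -2.18 ± 0.09 (adjusted p = 8.64e-08) for EPSCM against ES, -2.76 ± 0.09 (adjusted p = 2.37e-08) for EPSCM against 2iLIF and 0.58 ± 0.09 (adjusted p = 3.53e-04) for 2iLIF against ES. In the GENCODE annotation Notum, Sfrp2 and Gsk3a overlap antisense genes, and so do Wnt5a, Wnt7b, Rspo3 and Tcf7l1. Wnt11, Fzd5, Fzd6, Tnks and Ctnnb1 overlap other genes on the opposite strand. The kit keeps strand, and whether counting used strand was not given in the sources used here.

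Among the other antagonists, the SFRP genes encode decoys that keep WNT from its receptors. Sfrp1 was the highest antagonist in every medium, at 47.2 ± 2.88, 82.1 ± 5.84 and 59.1 ± 2.42 FPKM in ES, 2iLIF and EPSCM, and had no call, with 0.79 ± 0.07 (adjusted p = 1.19e-05) for 2iLIF against ES. The other 3 were lowest in 2iLIF. Sfrp2 stood at 8.89, 8.36 and 8.57 FPKM in ES, 2.51, 2.62 and 2.47 in 2iLIF and 15.4, 19.4 and 16.1 in EPSCM. The media did not overlap, with EPSCM at the top. The difference was -1.44 ± 0.08 (adjusted p = 6.84e-07) for 2iLIF against ES, 2.34 ± 0.08 (adjusted p = 3.83e-08) for EPSCM against 2iLIF and 0.90 ± 0.08, not called, for EPSCM against ES. Sfrp4 was at 5.74, 5.92 and 5.86 FPKM in ES, 1.73, 1.27 and 1.11 in 2iLIF and 4.20, 4.29 and 4.68 in EPSCM. Its 2iLIF libraries were below all others, with -1.54 ± 0.09 (adjusted p = 9.23e-07) for 2iLIF against ES and 1.19 ± 0.09 (adjusted p = 4.24e-06) for EPSCM against 2iLIF. Sfrp5 was at 2.93, 2.44 and 2.36 FPKM in ES, 0.132, 0.188 and 0.107 in 2iLIF and 2.46, 2.85 and 2.24 in EPSCM. Here too 2iLIF was below all others, with -1.64 ± 0.08 (adjusted p = 3.22e-07) for 2iLIF against ES and 1.62 ± 0.08 (adjusted p = 3.24e-07) for EPSCM against 2iLIF, while ES and EPSCM overlapped. Sfrp1 held 95.3% ± 0.688 of the summed SFRP FPKM in 2iLIF, 73.4% ± 1.76 in ES and 71.2% ± 2.86 in EPSCM.

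DKK proteins block the LRP co-receptors, apart from DKK3, which does not act in that way. Dkk3 stood at 3.94, 3.87 and 3.90 FPKM in ES, 2.17, 1.75 and 1.65 in 2iLIF and 7.51, 8.56 and 7.83 in EPSCM. EPSCM was above and 2iLIF below all other libraries. The difference was 1.65 ± 0.08 (adjusted p = 2.00e-07) for EPSCM against 2iLIF, and 0.87 ± 0.08, not called, for EPSCM against ES. Dkk1, a classical antagonist and WNT target, was not tested; its libraries ran from 0 to 0.174 FPKM in ES, 0.563 to 1.05 in 2iLIF and 0 to 0.156 in EPSCM. Dkk2 is listed at 0 in all libraries, and Dkk4 reached at most 0.0302 FPKM. Wif1, a decoy that binds WNT, was not tested, at 0.0569 ± 0.0353, 0.153 ± 0.0482 and 1.10 ± 0.190 FPKM in ES, 2iLIF and EPSCM.

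R-spondins act through LGR4, LGR5 and LGR6 to keep WNT receptors at the cell surface. Rspo1 stood at 1.48, 1.63 and 1.40 FPKM in ES, 0.178, 0.247 and 0.205 in 2iLIF and 0.892, 0.755 and 0.779 in EPSCM. The media did not overlap, and the difference for 2iLIF against ES was -1.05 ± 0.06 (adjusted p = 4.51e-07), at -0.98 after quantile normalization. Rspo1 passed the filter through ES alone, so a difference was built into this test. Of the other R-spondins Rspo4 had the highest library value, 0.515 FPKM. Lgr4 was the main LGR receptor, at 12.8 ± 1.84, 8.23 ± 0.970 and 7.89 ± 1.16 FPKM in ES, 2iLIF and EPSCM, and had no call. Lgr6 was not tested, at 1.02 ± 0.0568, 0.103 ± 0.0487 and 0.163 ± 0.0184 FPKM, and Lgr5, a WNT target in the gut, reached at most 0.0124 FPKM.

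**Figure D4:**
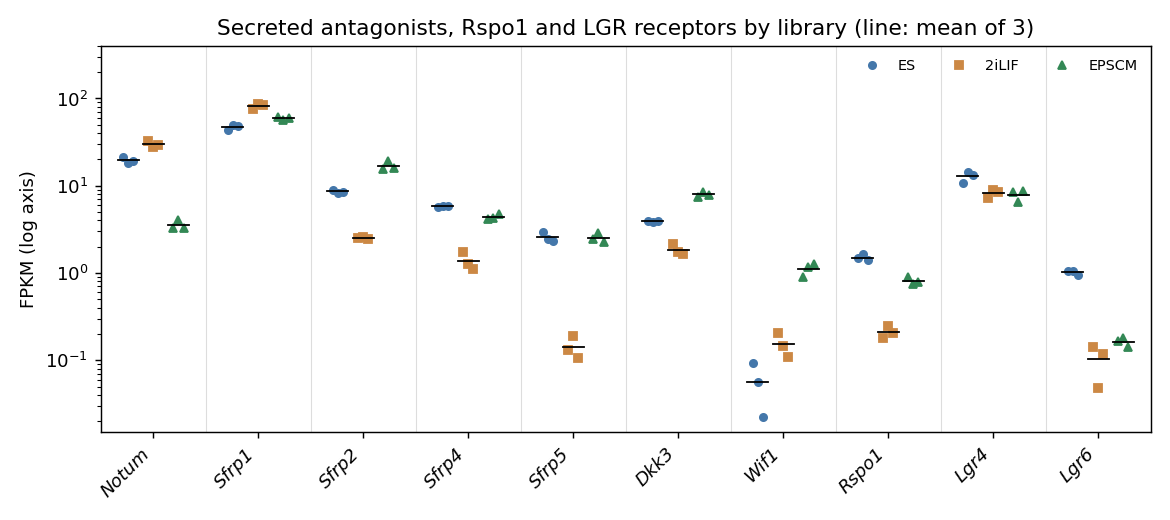
FPKM (log y axis) of 7 secreted antagonists, Rspo1, Lgr4 and Lgr6 (x axis) in each of the 9 libraries, with a line at the mean of the 3 libraries of a medium. Notum is lowest in EPSCM, and Sfrp2, Sfrp4, Sfrp5, Dkk3 and Rspo1 are lowest in 2iLIF.

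Of beta-catenin, the destruction complex and the tankyrases, 7 genes and all of them tested, only Tnks was called in any comparison. This made 14.3% of the 7 in EPSCM against ES and in 2iLIF against ES, and none in EPSCM against 2iLIF. Of all tested genes 19.7%, 14.7% and 16.1% were called in these comparisons, so few calls were to be expected among 7 genes. Ctnnb1, which encodes beta-catenin, was the most abundant of the 7, at 310 ± 6.29, 312 ± 6.55 and 280 ± 4.87 FPKM in ES, 2iLIF and EPSCM. Its difference for EPSCM against ES was -0.15 ± 0.05 (adjusted p = 0.0184), and had the other sign, 0.09, after quantile normalization. Axin1, the scaffold of the complex, was at 23.2 ± 2.33, 24.1 ± 1.92 and 24.5 ± 2.17 FPKM, and the media overlapped. Apc, another scaffold, was at 11.2 ± 1.01, 19.5 ± 1.67 and 14.6 ± 1.59 FPKM, with 0.75 ± 0.10 (adjusted p = 1.55e-04) for 2iLIF against ES.

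Of the GSK3 kinases Gsk3a had the higher level, at 45.9 ± 1.72, 49.1 ± 1.39 and 58.1 ± 1.34 FPKM in ES, 2iLIF and EPSCM. Gsk3b stood at 7.47, 7.74 and 7.48 FPKM in ES, 15.49, 16.5 and 15.9 in 2iLIF and 14.1, 13.5 and 13.3 in EPSCM. ES was below all other libraries, yet the differences of 0.98 ± 0.05 (adjusted p = 4.08e-07) for 2iLIF against ES and 0.77 ± 0.05 (adjusted p = 1.47e-06) for EPSCM against ES were short of the fold limit. The first passed it, at 1.07, with a pseudocount of 0.1 FPKM, and at 1.00 without 2iLIF replicate 1.

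Tankyrases modify AXIN and so mark it for breakdown. Tnks stood at 8.24, 8.19 and 8.34 FPKM in ES, 17.9, 18.9 and 18.7 in 2iLIF and 23.96, 22.5 and 23.7 in EPSCM. ES lay below and EPSCM above all other libraries. The difference was 1.40 ± 0.05 (adjusted p = 4.79e-08) for EPSCM against ES and 1.07 ± 0.05 (adjusted p = 1.74e-07) for 2iLIF against ES, the latter 0.95 after quantile normalization. Tnks2 was at 31.9, 52.1 and 49.4 FPKM in ES, 39.4, 58.1 and 57.1 in 2iLIF and 76.5, 51.4 and 76.1 in EPSCM. In every medium the lowest value was that of the library that stood apart, 0.628 to 0.684 times the mean of the other pair, and no difference was called. For EPSCM against ES it was 0.61 ± 0.23 (limma adjusted p = 0.041), and the libraries overlapped. With the library difference as a covariate EPSCM against ES was 0.61 ± 0.03 (limma adjusted p = 3.37e-08), still short of the limit. That covariate was chosen from these data, so the smaller SE and p are no separate support. The nuclear factor Tcf7l1, mostly a repressor in these cells, was at 25.6 ± 0.956, 27.9 ± 1.61 and 24.2 ± 1.39 FPKM in ES, 2iLIF and EPSCM, and Tcf7l2 at 3.58 ± 0.276, 3.62 ± 0.576 and 3.05 ± 0.509 FPKM; neither was called.

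The rest of the pathway was read from a list of 70 other genes, 56 of them tested. In EPSCM against ES 9 were higher and 3 lower, 21.4%, near the 19.7% of all tested genes. In EPSCM against 2iLIF 6 were higher and 11 lower, 30.4% beside 16.1% of all, and in 2iLIF against ES 12 were higher and 1 lower, 23.2% beside 14.7% of all. Feedback and target genes, which beta-catenin is known to induce in many tissues, made up 12 of those tested. In 2iLIF against ES 7 of the 12 were higher, where 7.62% of all tested genes were, and none lower. In EPSCM against 2iLIF 1 was higher and 6 lower, where 5.91% of all were lower. Their median differences were 1.39 and -1.03, beside 0.03 and 0.03 for all tested genes. Axin2, the inducible AXIN, stood at 2.60, 2.05 and 2.05 FPKM in ES, 35.5, 29.8 and 30.0 in 2iLIF and 1.85, 2.16 and 2.00 in EPSCM. Its 2iLIF libraries were far above the others, and EPSCM and ES overlapped, with 3.34 ± 0.10 (adjusted p = 1.09e-08) for 2iLIF against ES and -0.10 ± 0.10 for EPSCM against ES. Sp5, a WNT-induced repressor, had 1.15 ± 0.0431, 70.3 ± 6.34 and 0.369 ± 0.0631 FPKM in ES, 2iLIF and EPSCM, and T, the brachyury factor, 0.190 ± 0.0187, 12.7 ± 0.854 and 0.412 ± 0.118 FPKM. Both were higher in 2iLIF than in ES, by 5.05 ± 0.07 (adjusted p = 6.11e-10) and 3.53 ± 0.08 (adjusted p = 3.13e-09). Cdx1, a caudal factor, was at 1.84 ± 0.237, 83.7 ± 6.39 and 8.12 ± 0.512 FPKM, and Ccnd1, a cell cycle cyclin, at 65.3 ± 3.38, 46.1 ± 1.41 and 19.5 ± 0.650 FPKM.

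Cdx1 rose in EPSCM against ES, by 1.68 ± 0.08 (adjusted p = 2.53e-07), and Ccnd1 fell, with -1.69 ± 0.06 (adjusted p = 3.18e-08). The other fixed feedback genes had no call: Tcf7 was at 17.2 ± 0.240, 34.8 ± 1.63 and 21.6 ± 0.715 FPKM, Znrf3, a ligase that removes Frizzleds, at 3.01 ± 0.108, 4.51 ± 0.192 and 3.31 ± 0.262 FPKM, and Nkd1 at 0.656 ± 0.0936, 0.959 ± 0.179 and 1.63 ± 0.279 FPKM. Rnf43, the sister ligase of Znrf3, and Lef1 were not tested, with means of 0.212, 1.05 and 0.384 FPKM and 0.824, 0.790 and 0.590 FPKM in ES, 2iLIF and EPSCM. Notum, a WNT target too, had the higher level of this pair in ES, with 19.6 ± 1.39 FPKM beside 2.23 ± 0.318 for Axin2.

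Among genes that are no feedback genes, the surface proteoglycans Gpc3 and Gpc6 were higher in EPSCM than in ES, by 1.46 ± 0.08 (adjusted p = 4.33e-07) and 1.23 ± 0.05 (adjusted p = 1.10e-07). Csnk1e, a casein kinase, was higher by 1.32 ± 0.11 (adjusted p = 5.20e-06) in the same comparison, and Tle4, a co-repressor that binds TCF factors, was lower, with -1.41 ± 0.06 (adjusted p = 1.44e-07). Against 2iLIF too EPSCM was higher in Gpc3, by 1.97 ± 0.08 (limma adjusted p = 8.46e-08), and in Csnk1e, by 1.54 ± 0.11 (limma adjusted p = 2.21e-06). Tle4 was lower there, with -1.03 ± 0.06 (limma adjusted p = 9.24e-07), and Gpc6 was not called, at 0.70 ± 0.05. Dact3, of a family that binds Dishevelled, was lower in 2iLIF than in ES, with -1.82 ± 0.07 (adjusted p = 8.07e-08), and higher in EPSCM than in 2iLIF, with 2.02 ± 0.07 (adjusted p = 4.59e-08). Prickle2, a planar polarity gene, was higher in 2iLIF than in ES, with 2.19 ± 0.05 (adjusted p = 5.80e-09).

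**Figure D5:**
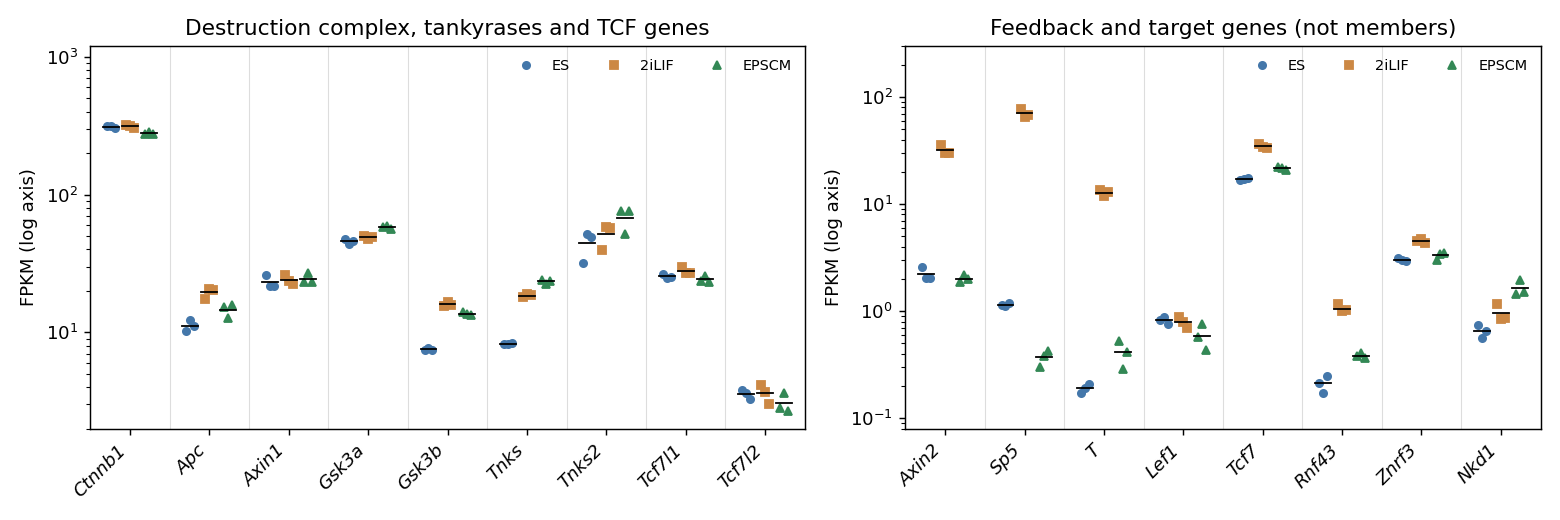
FPKM (log y axis) in each library, with a line at the mean of 3, of the destruction complex, tankyrase and TCF members (left) and of 8 feedback and target genes that are not members (right). Tnks and Gsk3b are lowest in ES and Ctnnb1 is nearly level, while Axin2, Sp5 and T are high in 2iLIF.

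Markers of other cell types were summed in ES, 2iLIF and EPSCM, as lowest to highest library. Fibroblast markers gave 14.8 to 16.7, 1.16 to 1.26 and 8.90 to 9.50 FPKM. Of the 8, Thy1 (means of 14.4, 0.410 and 6.02 FPKM), in the order of Sfrp4 and Rspo1, and Twist1 (0.751, 0.543 and 2.84), highest in EPSCM, reached 1 FPKM, and Col1a1, Col1a2, Col3a1, Dcn, Lum and Postn did not. Primitive endoderm markers gave 5.76 to 6.45, 2.99 to 3.38 and 9.77 to 10.5 FPKM, with members in different orders: Sox7 was highest in ES (2.79, 0.0422 and 0.0315), and Gata4 (0.817, 1.19 and 3.22), Gata6 (0.675, 0.258 and 3.17), Pdgfra and Dab2 were highest in EPSCM, as Sfrp2, Dkk3 and Fzd7 were. The other 3 of 8, Sox17, Foxa2 and Afp, stayed under 1 FPKM. Trophoblast markers gave 25.7 to 29.2, 71.8 to 82.9 and 47.1 to 55.3 FPKM, again in different orders: Krt8 (6.90, 47.6 and 6.16) and Cdx2 (0.109, 2.85 and 0.0411), which is also on the list of WNT targets, were highest in 2iLIF, and Tfap2c (18.2, 21.7 and 37.3) and Eomes (1.03, 3.30 and 4.40) in EPSCM. Hand1 (0.139, 0.0340 and 0.866) was also highest in EPSCM, and reached 1.03 FPKM in EPSCM replicate 2. Elf5, Gata3 and Krt7 stayed under 1 FPKM. Mesoderm markers gave 1.57 to 1.89, 13.4 to 15.50 and 1.498 to 2.40 FPKM. Most of the 2iLIF sum was T (0.190, 12.7 and 0.412), which is also on the list of WNT targets. T was the 1 of 6 that reached 1 FPKM, and was highest in 2iLIF as Wnt11, Wnt5b and Fzd10 were. The others were in different orders: Mixl1 and Kdr were highest in 2iLIF, Mesp1 in ES, and Tbx6 and Msgn1 in EPSCM. Tubb3, a tubulin of neurons, was highest in ES (62.9, 19.6 and 16.2), as Wnt6, Porcn and Fzd5 were, and Nes, of neural precursors, in EPSCM (2.34, 1.76 and 8.30). None of these markers was listed at 0 in all libraries. The part of such cells in the members' differences was not tested.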

How the data were processed

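RNA of 9 libraries, 3 per medium, was measured. The authors made the deposited FPKM values from mm9 with STAR and Cuffnorm, per the submitters' processing notes; tool versions, annotation, scaling and strand use were not given in the sources used here. Since such values hold no counts, depth was only estimated, roughly, from the steps of low values. Groups follow the labelled culture condition and columns were matched to titles; replicate numbers follow accession order. The 12330 tested genes were fitted on log2(FPKM + 1) with limma 3.58.1 (R 4.3.3), a mean per medium over 9 libraries and a trended prior, with Benjamini-Hochberg adjustment over them. The script was tested on simulated data. Chromosomes, promoters and overlaps were looked up by symbol in GRCm38 tables from RefSeq and GENCODE, a build other than mm9.

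Members, lists and tests were chosen with earlier results of these data known. Called members with a mean of 1 FPKM or more in the higher medium are given by library; other members reaching that mean, and the co-receptors, complex and TCF genes, by mean; the rest by range or count. Of the other pathway genes, 8 fixed genes and, per comparison, the 6 largest called differences are named. Alternatives changed the pseudocount, filter, scaling, covariates, libraries fitted and call rule, subtracted chromosome medians, or left out a library; leaving out the 3 libraries that stood apart was chosen after seeing the data. One further marker list is not reported here.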

Additional observations from a re-analysis of the deposited data

How the results depend on the processing

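No paired analysis was possible because the labels give the media no shared replicate numbers. A covariate for the library that stood apart in each medium, chosen from earlier results, left the same 8, 11 and 11 members called. It marks 1 library in every medium, so it can change only the SE and p of a difference. The differences, and with them the outcome of the fold limit, were bound to stay the same. Of 30 calls of a member in a comparison, 23 kept the call in each of the 20 other settings in which they were tested, 7 lost it in at least 1, and none changed sign. The 7 were Fzd5 and Fzd9 in EPSCM against ES, Sfrp4 in EPSCM against 2iLIF (0.97 after quantile normalization), and Wnt11, Fzd8, Rspo1 and Tnks in 2iLIF against ES. Of uncalled differences 15 had the other sign in some setting, at most 0.26 in size.

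With no fold limit 17 members were higher and 10 lower in EPSCM against ES, 14 and 11 in EPSCM against 2iLIF, and 13 and 13 in 2iLIF against ES; 43, 48 and 46 other pathway genes were called, and 9015, 8381 and 8265 of all genes. A mean of 5 FPKM or more as the filter left fewer genes, 18 of the members among them. With it 1 member was higher and 3 lower in EPSCM against ES, and 2 higher and 2 lower in EPSCM against 2iLIF. In 2iLIF against ES 2 members were higher and 1 lower, and 6 other pathway genes were called. Of all genes 1532, 1025 and 1055 were called in the same order. The number of all genes left by this filter is not given here, so these counts have no share beside them. A pseudocount of 0.1 FPKM gave 9 members higher and 5 lower in EPSCM against ES. More of all genes were called in that comparison too than the 2423 of the main setting. The rise in calls was thus not particular to the members. In 2iLIF against ES 2738 of all genes were called with that pseudocount, in place of 1817. That pseudocount gave calls to Wnt5b, Wnt11, Dkk3, Fzd2, Fzd4 and Fzd8 in EPSCM against ES and to Fzd3 and Rspo1 in EPSCM against 2iLIF. In 2iLIF against ES it gave calls to Dkk3, Fzd3, Fzd4 and Gsk3b. As stated above, the scale log2(FPKM + 1) understates changes of low genes. Over all genes, 59.4% of the calls in EPSCM against ES and 63.2% in EPSCM against 2iLIF were higher, and 49.5% and 52.8% after quantile normalization. Levels under 0.1 FPKM rest on few fragments.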
